A study of Arabidopsis thaliana with 8 samples.

Results

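Molecular chaperones of the HSP100, HSP70 and HSP90 families and their helpers were followed in whole Arabidopsis thaliana seedlings that expressed a coffee transcription factor, against wild-type seedlings. The 10 genes were chosen by locus as HSP101, the heat-induced HSP70 and HSP90.1 genes, 4 constitutive HSP70 and HSP90 genes, the co-chaperone genes ROF1 and ROF2, and the endoplasmic reticulum (ER) chaperone gene BIP2. They are 10 of the 20701 gene loci in the mRNA table, and all 10 passed the filter on low counts. Both groups were accession Columbia, harvested 10 days after germination from growth at 22 ± 2 °C with 18 h of light and 6 h of darkness. No heat treatment is named in the labels. The transgenic group carried 35S:CAHB12, a coffee class I homeodomain-leucine zipper gene behind the constitutive 35S promoter, and the wild-type group carried no transgene. Each group had 2 mRNA libraries, each from a pool of 50 seedlings, called biological replicates in the labels. The design text speaks of a pair of transgenic lines, but no label ties a library to a line, and the CAHB12 transcript itself was not analysed here.

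Heat shock proteins are chaperones that bind unfolded proteins. HSP70 and HSP90 use ATP to hold and refold their clients and are steered by co-chaperones such as J-domain proteins, nucleotide exchange factors and immunophilins, while HSP101 pulls aggregated proteins apart. In plants some members are made at all times in the cytosol, whereas others are made at low levels until heat shock factors switch them on. BIP proteins are the HSP70 type of the ER and are part of the unfolded protein response.

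Libraries held between 15424261 and 19436632 counts. Principal components were taken from log2 CPM, the counts scaled to library size. On the first, transgenic replicates 1 and 2 lay at -9.37 and -26.8, below wild-type replicates 1 and 2 at 32.5 and 3.67. On the second, transgenic replicate 1 stood apart (27.2, against -16.9 to 0.674 in the other libraries). Green tissue markers and root markers were present in all 4 libraries, as whole seedlings would give. Green tissue markers summed to 21150 and 21830 CPM in transgenic replicates, against 23830 and 21760 CPM in wild-type replicates, with 3 higher and 2 lower means. Root markers summed to 1621 and 1502 CPM in transgenic replicates, against 1310 and 1253 CPM in wild-type replicates, with 4 higher and 4 lower means. Seed and embryo markers, of which 7 of 10 were listed summed to 4.30 and 127 CPM in transgenic replicates 1 and 2, against 20.9 and 47.7 CPM in wild-type replicates 1 and 2. Of the floral markers 1 of 7 was listed, at 0.517 to 3.001 CPM. No listed marker was at 0 in every library. In such bulk samples fewer cells of a type and less RNA per cell cannot be told apart.

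The comparison asked whether chaperone transcripts differed between 35S:CAHB12 and wild-type seedlings. The 3 heat-induced genes and ROF2 had higher means in transgenic seedlings, by 1.22- to 1.57-fold, while the 4 constitutive genes, ROF1 and BIP2 had lower means, by 1.08- to 1.44-fold. None of these differences passed edgeR's quasi-likelihood test over all 20298 genes tested (Benjamini-Hochberg adjusted p under 0.05). Thus 0 of the 10 genes were called, where 0.0838% of all genes were called in either direction (0.0345% higher and 0.0493% lower). DESeq2 and limma called 0 of the 10 as well, with 3 and 2 of them at an unadjusted p under 0.05. At an unadjusted p under 0.05 edgeR had 3 of the 10 genes, HSP101 and HSP90.1 higher and BIP2 lower, against 7.92% of all genes tested (3.7% higher and 4.22% lower). Both transgenic libraries lay above both wild-type libraries for 4 genes (20.2% of all genes tested) and below both for 2 genes (19.3% of all genes tested). The median log2 fold change was -0.16 over the 10 genes and 0.0065 over all genes tested. Of all genes tested, 10440 had higher and 9858 had lower means in transgenic seedlings. The median of the 10 was -0.074 without wild-type replicate 1 and -0.25 without wild-type replicate 2. With 2 libraries against 2, an exact permutation test of a single value cannot give a two-sided p below 0.333.

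**Figure D1:**
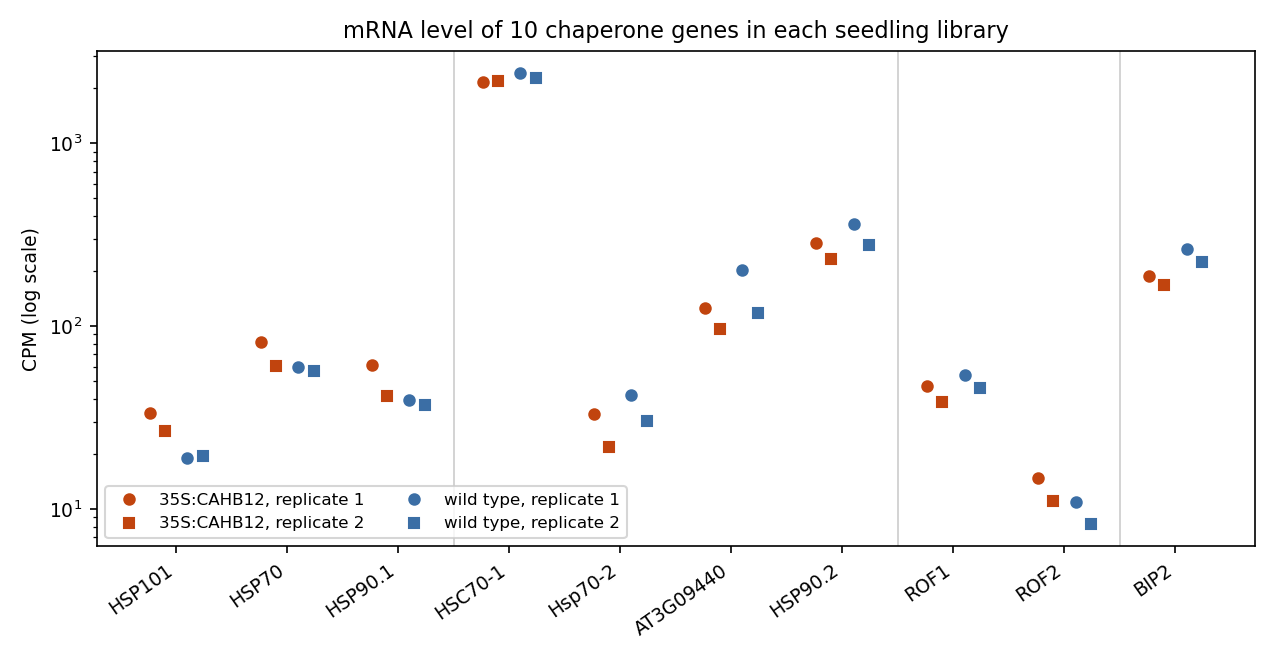
Level of each of the 10 genes in CPM (log scale) in the 2 libraries of 35S:CAHB12 seedlings (left of each pair, red) and of wild-type seedlings (blue). HSC70-1 lies between 2165 and 2415 CPM and ROF2, the lowest, between 8.28 and 14.7 CPM.

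HSP101 (AT1G74310) encodes the cytosolic disaggregase that plants need to acquire heat tolerance. It had 33.6 and 26.8 CPM in transgenic replicates 1 and 2, against 19.03 and 19.4 CPM in wild-type replicates 1 and 2, from 298 to 532 counts a library. The wild-type libraries lay close together and both transgenic libraries lay above them. Its mean was 30.2 ± 4.85 CPM in transgenic and 19.2 ± 0.262 CPM in wild-type seedlings (SD, n = 2 each), and the fitted log2 fold change was 0.65 (SE 0.13, 95% interval 0.34 to 0.96; edgeR adjusted p = 0.253). Ordered by unadjusted p, HSP101 stood at place 102 of all genes tested. Leaving out single libraries gave values from 0.47 to 0.81. The gene model overlaps that of AT1G74300, whose level was 6.57 and 6.38 CPM in transgenic and 7.28 and 6.21 CPM in wild-type libraries. HSP101 was highest in transgenic replicate 1, the library with the lowest sum of seed markers. The part of the seed markers in this difference was not tested.

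HSP70 (AT3G12580) encodes the cytosolic HSP70 that is strongly heat-induced. It had 82.2 and 60.3 CPM in transgenic replicates, against 59.95 and 56.9 CPM in wild-type replicates. Transgenic replicate 1 stood above the other 3 libraries, which lay close together. The log2 fold change was 0.29 (SE 0.14, 95% interval -0.043 to 0.62; edgeR adjusted p = 0.667), and it was 0.037 without transgenic replicate 1.

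HSP90.1 (AT5G52640), the heat-induced cytosolic HSP90 gene, showed the same arrangement. Its level was 61.6 and 41.5 CPM in transgenic replicates, against 39.4 and 37.0 CPM in wild-type replicates. The groups did not overlap, but the second transgenic library was nearer to wild type than to the first. The log2 fold change was 0.43 (SE 0.17, 95% interval 0.039 to 0.82; edgeR adjusted p = 0.605), and it was 0.11 without transgenic replicate 1.

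Among the constitutive genes, HSC70-1 (AT5G02500) encodes the main cytosolic HSP70 of unstressed plants. It had 2165 and 2193 CPM in transgenic replicates, against 2415 and 2273 CPM in wild-type replicates. Both transgenic libraries were below both wild-type libraries, by a small margin. The log2 fold change was -0.11 (SE 0.10, 95% interval -0.34 to 0.13; edgeR adjusted p = 0.811). HSC70-1 made up 71.3% and 75.9% of the counts of the 10 genes in transgenic replicates and 69.6% and 73.5% in wild-type replicates. All 10 genes held 0.311% and 0.283% of the counts of transgenic libraries and 0.346% and 0.307% of those of wild-type libraries.

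Hsp70-2 (AT5G02490), the neighbour of HSC70-1 on its chromosome, had 33.1 and 21.7 CPM in transgenic replicates, against 42.1 and 30.3 CPM in wild-type replicates. The groups overlapped, and within each group the libraries differed by more than the group means did. Its log2 fold change was -0.40 (SE 0.22, 95% interval -0.90 to 0.095; edgeR adjusted p = 0.689). It was -0.75 without transgenic replicate 1 and -0.13 without transgenic replicate 2.

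AT3G09440, the remaining constitutive HSP70 gene, had the lowest log2 fold change of the 10 genes, -0.52 (SE 0.23, 95% interval -1.06 to 0.013; edgeR adjusted p = 0.634). Its level was 126 and 96.4 CPM in transgenic replicates, against 202 and 118 CPM in wild-type replicates. The groups overlapped, and wild-type replicate 1 was 1.71-fold above wild-type replicate 2. The value rested on that library, since the log2 fold change was -0.088 without wild-type replicate 1 and -0.87 without wild-type replicate 2. The overlapping gene AT3G09430 had at most 2.53 CPM in any library.

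HSP90.2 (AT5G56030), a constitutive cytosolic HSP90 gene, had 284 and 234 CPM in transgenic replicates, against 362 and 279 CPM in wild-type replicates. Transgenic replicate 1 and wild-type replicate 2 were at nearly the same level, so the groups overlapped. The log2 fold change was -0.31 (SE 0.15, 95% interval -0.65 to 0.034; edgeR adjusted p = 0.656). It was -0.11 without wild-type replicate 1 and -0.49 without wild-type replicate 2.

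ROF1 and ROF2 encode a pair of related immunophilins of the FKBP type that bind HSP90. ROF1 (AT3G25230) had 46.8 and 38.5 CPM in transgenic replicates, against 53.8 and 45.6 CPM in wild-type replicates. ROF2 (AT5G48570), which is heat-induced, had 14.7 and 11.1 CPM in transgenic replicates, against 10.9 and 8.28 CPM in wild-type replicates. The groups overlapped for ROF1 and were apart by a narrow gap for ROF2. The log2 fold change was -0.22 for ROF1 (SE 0.13, 95% interval -0.52 to 0.078; edgeR adjusted p = 0.708) and 0.43 for ROF2 (SE 0.19, 95% interval -0.013 to 0.88; edgeR adjusted p = 0.634). Over the fits that left out 1 library it ran from -0.38 to -0.083 for ROF1 and from 0.20 to 0.64 for ROF2.

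BIP2 (AT5G42020), the ER luminal chaperone gene, had 187 and 167 CPM in transgenic replicates, against 263 and 224 CPM in wild-type replicates. Both transgenic libraries lay below both wild-type libraries, and wild-type replicate 2 was nearer to transgenic replicate 1 than to wild-type replicate 1. Its mean was 177 ± 14.3 CPM in transgenic and 244 ± 27.8 CPM in wild-type seedlings (SD, n = 2 each). The log2 fold change was -0.46 (SE 0.11, 95% interval -0.72 to -0.20; edgeR adjusted p = 0.348), and BIP2 stood at place 217 of all genes tested by unadjusted p. The value ran from -0.58 to -0.34 with 1 library left out.

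**Figure D2:**
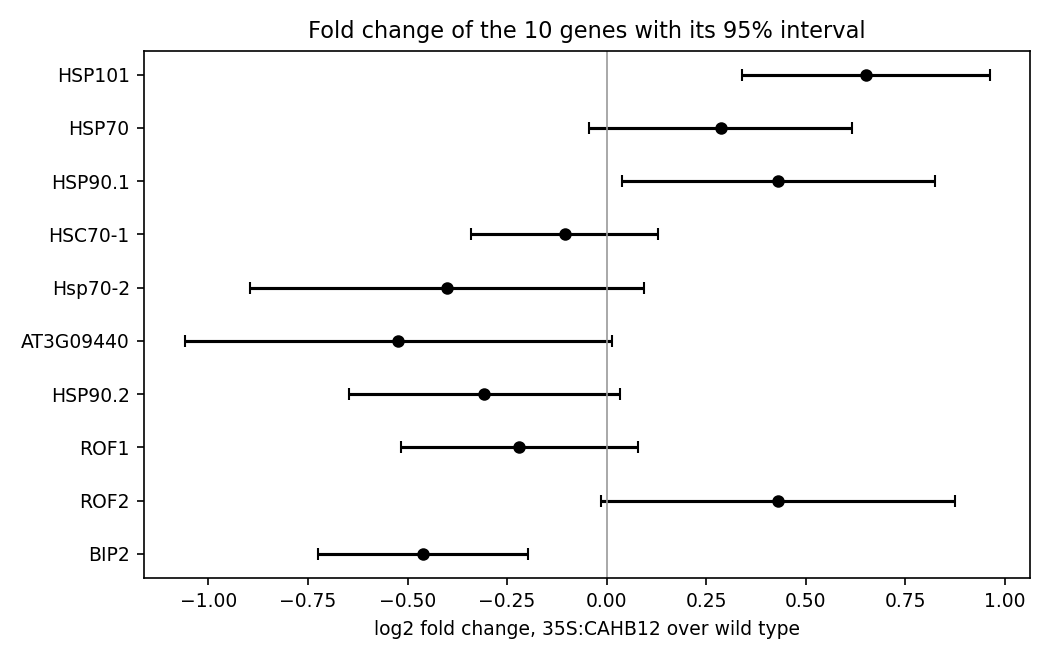
Log2 fold change of the 10 genes, 35S:CAHB12 over wild type, from edgeR, with 95% intervals as bars (2 libraries per group, intervals not adjusted for the number of genes). The intervals of HSP101, HSP90.1 and BIP2 leave out 0, and the heat-induced genes and ROF2 lie right of 0 while the other 6 lie left of it.

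**Figure D3:**
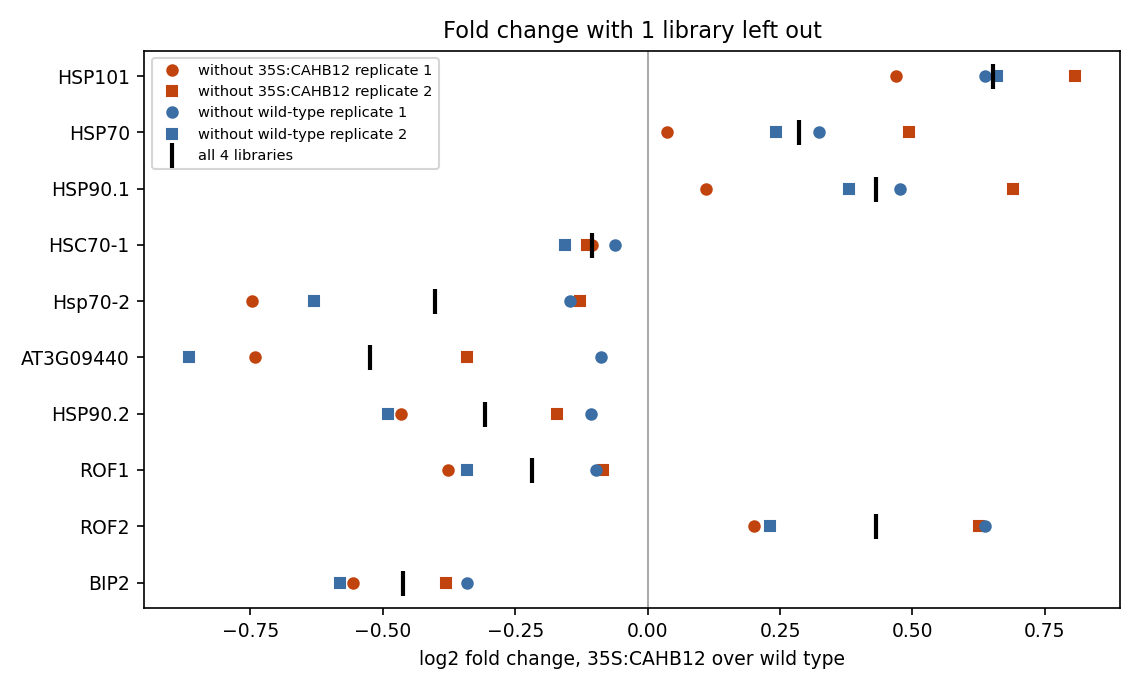
The same log2 fold changes when 1 library is left out (red, a 35S:CAHB12 library; blue, a wild-type library; circle, replicate 1; square, replicate 2), with the value from all 4 libraries as a black bar. HSP70 and HSP90.1 come nearest 0 without transgenic replicate 1 (0.037 and 0.11), and AT3G09440 without wild-type replicate 1 (-0.088).

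Levels of different genes were compared per length, as RPKM (CPM divided by the deposited length in kilobases). That length was within 10% of the gene span, which includes introns, for 66.6% of loci, so the order between genes also depends on intron length. HSC70-1 was the highest, at 803 to 896 RPKM over the 4 libraries, followed by HSP90.2 (82.0 to 127 RPKM), BIP2 (52.7 to 83.2 RPKM), AT3G09440 (38.2 to 80.0 RPKM) and HSP70 (22.5 to 32.5 RPKM). HSP101 (5.17 to 9.13 RPKM) and ROF2 (2.51 to 4.46 RPKM) were the lowest. The ranges of HSP90.2, BIP2 and AT3G09440 overlapped from one to the next, although their order held in all 4 libraries. The order was the same in both groups except for HSP90.1, ROF1 and Hsp70-2. By group mean, HSP90.1 was at place 6 in transgenic seedlings, with 20.8 and 14 RPKM, and at place 8 in wild-type seedlings, with 13.3 and 12.5 RPKM. In wild-type replicate 2, however, HSP90.1 lay above Hsp70-2 (11.6 RPKM). It lay above ROF1 in both transgenic libraries and below it in both wild-type libraries.

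Setting an induced gene against a relative in the same library removes any scaling between libraries. HSP90.2 and HSC70-1 were chosen as constitutive genes, whereas ROF1 was chosen as a co-chaperone gene. These pairs were put together after the values were seen. Each sets a gene with a higher mean in transgenic seedlings over one with a lower mean, so a higher ratio followed from the choice. How many other gene pairs part as far was not tested. HSP90.1 reached 20.8% and 17.1% of the HSP90.2 level (RPKM) in transgenic replicates, against 10.5% and 12.8% in wild-type replicates. ROF2 reached 30.8% and 28.1% of the ROF1 level in transgenic replicates, against 19.9% and 17.78% in wild-type replicates. For both pairs the groups were apart by more than the libraries of either group were. HSP70 reached 4.04% and 2.93% of the HSC70-1 level in transgenic replicates, against 2.65% and 2.67% in wild-type replicates, where the second transgenic library was close to wild type.

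**Figure D4:**
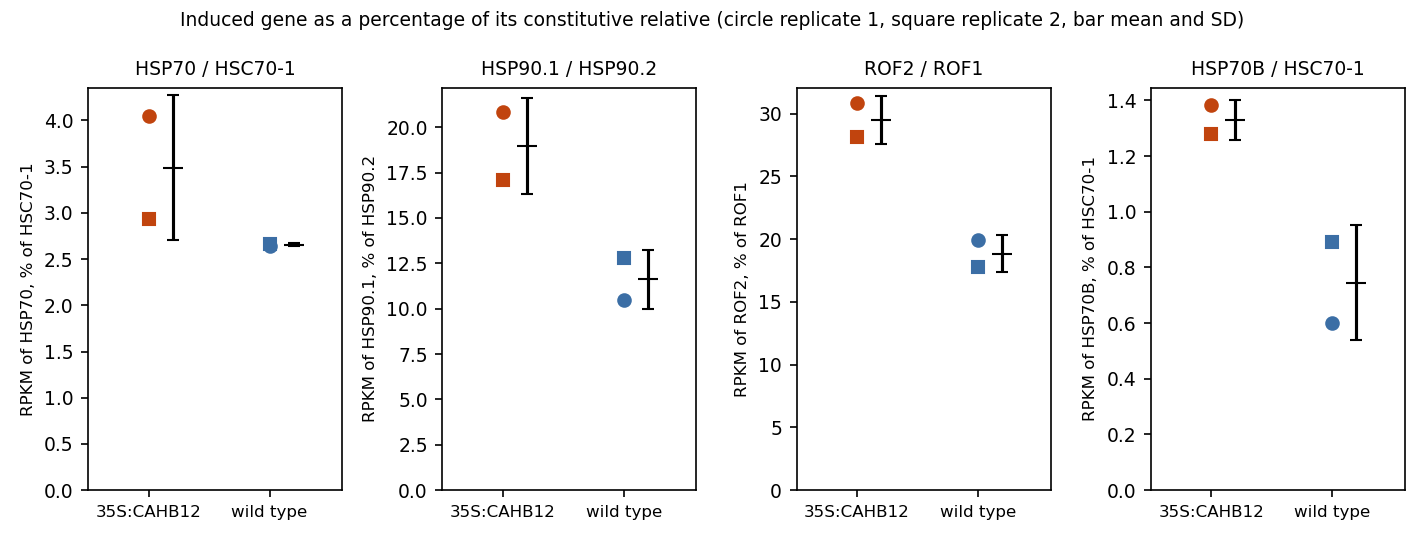
RPKM of an induced gene as a percentage of a related gene in each library (circle, replicate 1; square, replicate 2), with the group mean and SD (n = 2) as a black bar. ROF1 was chosen as a co-chaperone gene and not as a constitutive one. HSP90.1 averaged 18.9% of HSP90.2 in 35S:CAHB12 seedlings and 11.6% in wild type, ROF2 averaged 29.5% and 18.9% of ROF1, and HSP70B averaged 1.33% and 0.745% of HSC70-1.

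The make-up of each family was described in the same way, with relatives outside the 10 genes added. The 5 cytosolic HSP70 genes summed to 909 and 894 RPKM in transgenic replicates, against 1021 and 931 RPKM in wild-type replicates, and HSC70-1 gave 87.7% to 91.0% of that sum in every library. The 4 cytosolic HSP90 genes summed to 216 and 169 RPKM in transgenic replicates, against 271 and 206 RPKM in wild-type replicates. HSP90.1 gave 9.63% and 8.28% of the HSP90 sum in transgenic replicates, against 4.91% and 6.07% in wild-type replicates. In the ER, BIP2 gave 41.9% and 41.7% of the BIP sum in transgenic replicates, against 42.2% and 43.3% in wild-type replicates, so BIP1 and BIP2 kept nearly the same proportions. Genes within each of these families are close copies in sequence, and the sources used here do not say how reads shared between copies were counted, so the split within a family is uncertain.

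Closest relatives outside the 10 genes were taken from lists of the wider chaperone system. Of 13 HSP70 relatives, 12 were tested and 0 passed, with 4 higher and 8 lower means and a median log2 fold change of -0.12. HSP70B, another cytosolic HSP70 gene, had 25.9 and 24.2 CPM in transgenic replicates, against 12.5 and 17.5 CPM in wild-type replicates (log2 fold change 0.73, SE 0.16; edgeR adjusted p = 0.286). Leaving out wild-type replicate 2 gave 0.99, and leaving out wild-type replicate 1 gave 0.52. BIP1, the ER sister gene of BIP2, had 239 and 214 CPM in transgenic replicates, against 332 and 270 CPM in wild-type replicates. The log2 fold change of BIP1 was -0.41 (SE 0.12, edgeR adjusted p = 0.495). It was -0.56 without wild-type replicate 2 and -0.25 without wild-type replicate 1. BIP3, the ER stress-induced BIP gene, was near the floor, with 2 and 20 counts in transgenic and 13 and 8 counts in wild-type libraries. The chloroplast gene cpHSC70-1 had a log2 fold change of -0.13.

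All 5 HSP90 relatives had lower means, 0 passed, and their median log2 fold change was -0.20. HSP90.3, a constitutive cytosolic HSP90 gene, had 219 and 161 CPM in transgenic replicates, against 310 and 217 CPM in wild-type replicates. Its groups overlapped (log2 fold change -0.47, SE 0.19; edgeR adjusted p = 0.607), and leaving out wild-type replicate 2 gave -0.71, past the threshold, but the value was -0.19 without wild-type replicate 1 and -0.26 without transgenic replicate 2. HSP90.4 and the ER gene HSP90.7 had log2 fold changes of -0.23 and -0.20. The 5 HSP100 relatives, which include the chloroplast Clp ATPase genes CLPC1, CLPC2 and CLPD, had a median of 0.015 with values from -0.11 to 0.055, and 0 passed. HSP101 at 0.65 thus lay outside the range of its organelle relatives, a difference that was not tested.

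Of 14 J-domain partners and nucleotide exchange factors of HSP70, 13 were tested and 0 passed, with a median log2 fold change of -0.020. The cytosolic J-domain genes J2 and J3 had log2 fold changes of -0.33 and -0.19, BAG7 had -0.18 and FES1A, an HSP70-binding protein gene, had 0.27. Of 13 HSP90 co-chaperones 0 passed, 3 had higher and 10 lower means, and the median was -0.12. HOP3, a gene for an HSP70-HSP90 organizing protein, had 20.7 and 15.96 CPM in transgenic replicates, against 16.1 and 12.4 CPM in wild-type replicates (log2 fold change 0.37, SE 0.18; edgeR adjusted p = 0.650). Its relative HOP1 had -0.13, the listed gene AT4G02450 -0.12, and SGT1A, an HSP90-binding co-chaperone in plant immunity, -0.48 (SE 0.14; edgeR adjusted p = 0.477).

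Genes for ER folding and the unfolded protein response had 13 of 18 lower means, as BIP2 did, and a median log2 fold change of -0.18, with 0 passing the test. At an unadjusted p under 0.05, 5 were lower (4.22% of all genes tested) and 1 was higher (3.7% of all genes tested). Calreticulin gene CRT1A had 102 and 94.9 CPM in transgenic replicates, against 129 and 120 CPM in wild-type replicates (log2 fold change -0.34, SE 0.095; edgeR adjusted p = 0.440). The calnexin gene CNX1 and the disulfide isomerase gene PDIL1-1 had -0.30 and -0.26. All 8 organelle chaperonins had lower means, with a median of -0.19 and 0 passing. CPN60A and CPN20 of the chloroplast were at -0.042 and -0.045, HSP60-3A at -0.33 and the mitochondrial CPN10 at -0.24.

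Of 14 heat shock factors and other regulators 13 were tested and 0 passed, with a median log2 fold change of 0.059 and a range from -1.05 to 1.34. The lowest was HSFB2A, a heat shock factor gene picked here after its value was seen, with 7.08 and 4.85 CPM in transgenic replicates, against 18.5 and 6.52 CPM in wild-type replicates (SE 0.44; edgeR adjusted p = 0.612). HSFA2, a heat-induced factor that activates chaperone genes, had 5.12 and 2.76 CPM in transgenic replicates, against 1.66 and 1.45 CPM in wild-type replicates (log2 fold change 1.34, SE 0.34; edgeR adjusted p = 0.373). It rested on 26 to 81 counts a library. MBF1C, a heat-induced transcriptional coactivator gene, had 15.9 and 12.5 CPM in transgenic replicates, against 11.1 and 8.79 CPM in wild-type replicates (log2 fold change 0.51, SE 0.175; edgeR adjusted p = 0.557). HSBP, a gene for a protein that binds heat shock factors, had 0.017. Small heat shock proteins, of which 15 of 16 were tested, had the highest median of the chaperone lists, 0.96, with 15 higher means and 0 passing. At an unadjusted p under 0.05, 10 were higher (3.7% of all genes tested), and 14 had both transgenic libraries above both wild-type libraries (20.2% of all genes tested). The number of the list that passed was 5 in DESeq2, 1 in limma and 1 in a robust edgeR fit. Over all genes these fits called 76 in DESeq2, 10 in limma and 31 in the robust fit. HSP17.6II had the smallest edgeR adjusted p, 0.0601, at a log2 fold change of 1.55, and passed in DESeq2 and limma. Leaving out single libraries gave 1.44 to 1.64 for HSP17.6II. HSP17.6A had 1.37 (edgeR adjusted p = 0.0969) and passed in DESeq2, and its values ran from 1.05 to 1.63 with single libraries left out. The 7 seed and embryo markers had 7 higher means and a median of 1.04, with 0 passing. Both transgenic libraries lay above both wild-type libraries for only 1 of them (20.2% of all genes tested). Their sum was 4.30 CPM in transgenic replicate 1 and 127 CPM in transgenic replicate 2, against 20.9 and 47.7 CPM in wild-type replicates. The part of the seed markers in the small heat shock protein values was not tested. AT4G21870, the most abundant small heat shock protein gene per length, had 0.13, the lowest value of that list. It had -0.38 without transgenic replicate 2, -0.45 without wild-type replicate 1 and 1.17 without wild-type replicate 2.

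**Figure D5:**
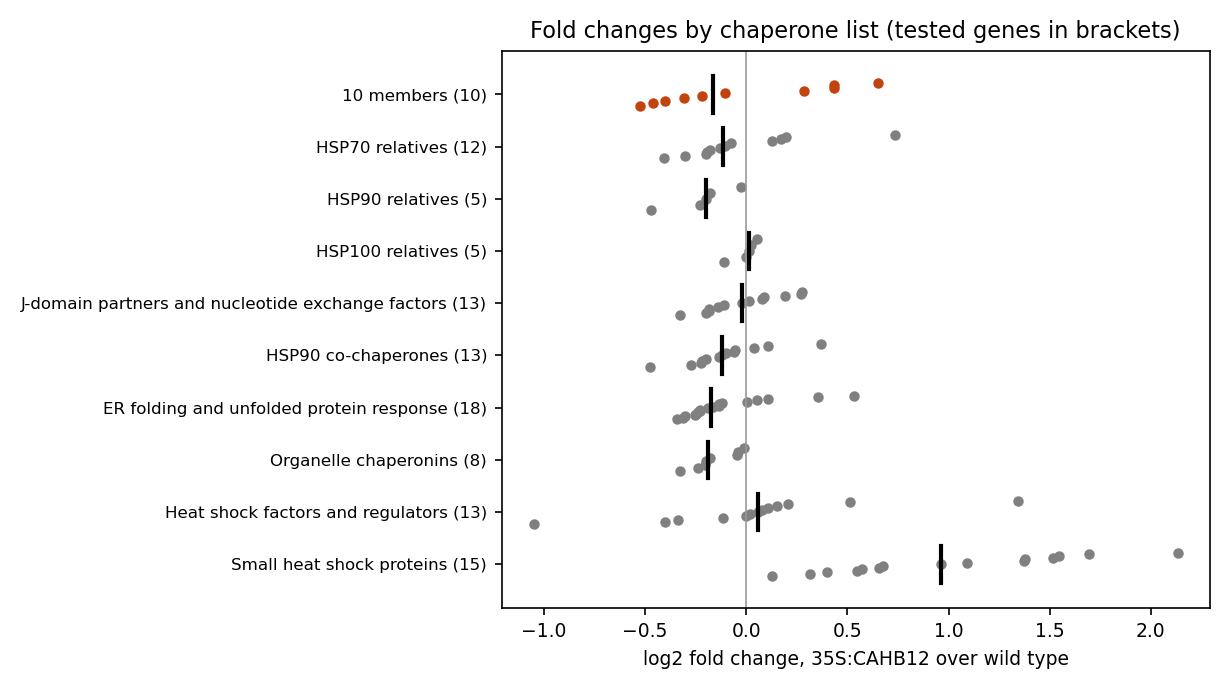
Log2 fold change of each tested gene, 35S:CAHB12 over wild type, for the 10 chaperone genes (red) and the lists of the wider chaperone system (grey), with the list median as a black bar and the number of tested genes in brackets. Small heat shock proteins lie to the right (median 0.96), and the other medians lie between -0.20 and 0.059.

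The profile of the heat-induced genes over the 4 libraries was set beside that of all other genes with a mean of at least 10 CPM. Averaged over HSP101, HSP70 and HSP90.1, the centred log2 CPM was 0.44 and -0.0048 in transgenic replicates, against -0.20 and -0.24 in wild-type replicates. Of 12433 genes compared, the 5 nearest by root mean square difference were AT5G53080, ATCG01130, MLP328, IREG1 and AT5G65207, at 0.042 to 0.075 on the log2 scale. The nearest genes of the chaperone lists were MBF1C at place 46, the small heat shock protein gene AT2G29500 at place 55 and HOP3 at place 73. Other heat-response genes were far from the profile. HSP70B and the small heat shock protein gene HSP17.6A lay beyond HSBP, which was at place 1773. ROF2 lay at 0.12 from that profile and BIP2 at 0.46. With 4 libraries such likeness is a description of these samples only.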

How the data were processed

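The build TAIR9 and the tools edgeR, Bowtie and BWA 0.5.8c stand in the submitters' processing notes without a role. Per the file headers, the deposited mRNA table holds raw counts per locus, a length (other unit, bases), and CPM and RPKM computed by the authors. Every deposited CPM and RPKM value equalled the one recomputed from count, total and length within 0.001, so only counts and lengths were used. The length was a median of 0.939 times the gene span in the name table, whose build is TAIR10.1, so no coordinates are given. Names came from that table, which held 20420 loci. Small RNA values were not used here, and no sequences were at hand, so the planned promoter motif search was not run.

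Counts were tested in edgeR 4.0.16 (R 4.3.3) with TMM factors, filterByExpr, glmQLFit and glmQLFTest, without covariates, over 20298 genes. CPM and RPKM given here use TMM factors. SE is the log2 fold change over the root of F, and 95% intervals use the t distribution of the fit. A count of 0 allows up to 0.155 to 0.192 CPM (3 counts, counting error only). Replicate counts differed beyond sampling noise (chi-square per degree of freedom 11.2 in transgenic and 10.3 in wild-type pairs). Nothing beyond the label shows separate cultures, so p-values measure the spread between these pools. In simulated data all genes shared the same relative spread between replicates, and 200 of 20158 genes were changed. There edgeR called 32.8% of those changed 1.5-fold, 85.1% of those changed 2-fold and 93.9% of those changed 4-fold. It also called 10 unchanged genes. Real genes need not share that spread, so these rates may not hold for them. DESeq2 1.42.0 and limma 3.58.1 (log2(RPKM + 0.5)) were alternatives. Figures used Python 3.11.15 and matplotlib 3.10.9.

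Members and lists were chosen with earlier results of these data known. From each list the text names the 2 genes with the highest mean RPKM and the 2 with the smallest unadjusted p, plus BIP1, BIP3, HSP70B, HSP90.3 and HSP90.4, and the 5 genes most like the heat-induced profile. HSFB2A, AT2G29500, AT1G11660 and the organelle and HSP110-type HSP70 relatives lie outside that rule and were chosen after their values were seen.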

Additional observations from a re-analysis of the deposited data

How the results depend on the processing

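The 10 chaperone genes kept their direction in all 12 refits, which changed the scaling, filter, tool or libraries or added a replicate term. The count of the 10 called was 0 in the fits that kept all libraries and had no replicate term. Leaving out 1 library gave 0 to 2, with BIP2 and AT3G09440 passing without wild-type replicate 2; these fits assume that the lone library varies as the other group does. Over all genes, 17 were called, and DESeq2 called 76, limma on log2(RPKM + 0.5) 10, robust fitting 31 and an adjusted p under 0.1 41. Leaving out 1 library gave 16 to 411 calls, 411 without wild-type replicate 2 and 72 without wild-type replicate 1.

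The labels give both groups replicate numbers 1 and 2 but do not say that a number marks a shared batch. The deviations of same-numbered libraries correlated at 0.23 across genes. With a replicate block, edgeR called 596 genes and 5 of the 10 (HSP101, HSP90.1, Hsp70-2, AT3G09440 and BIP2). Among the relatives named by rule the block fit also called HSP70B, BIP1, HSP90.3, CNX1, CRT1A, MBF1C, HSFA2, HSP17.6II and HSP17.6A. In all it called 3 heat shock factors and regulators and 8 small heat shock protein genes.

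Leaving out 1 library moved the list medians. They ran from -0.059 to 0.14 for heat shock factors and regulators, -0.088 to 0.041 for HSP100 relatives, -0.29 to -0.057 for organelle chaperonins, -0.27 to -0.099 for ER folding genes, -0.19 to -0.057 for HSP70 relatives, -0.31 to -0.11 for HSP90 relatives, -0.15 to -0.093 for HSP90 co-chaperones and -0.12 to 0.047 for J-domain partners. Small heat shock proteins ran from 0.83 to 1.25, and had 0.82 with at least 1 CPM in 2 libraries and 0.87 with limma. The medians of the heat shock factors, HSP100 relatives and J-domain partners thus changed sign. The cause was not tested. The simulated data, in which all genes shared the same relative spread between replicates, gave calls for 32.8% of genes changed 1.5-fold.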

Other observations

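The 5 organelle and HSP110-type relatives of HSP70 named in this section were picked after their values were seen. All 5 had lower means in transgenic seedlings, and none passed edgeR's test. In the mitochondrion, mtHSC70-1 had 170 and 158 CPM in transgenic replicates, against 197 and 180 CPM in wild-type replicates, and mtHSC70-2 had 78.7 and 64.6 CPM in transgenic replicates, against 102.6 and 74.4 CPM in wild-type replicates. Their log2 fold changes were -0.20 (SE 0.098; edgeR adjusted p = 0.659) and -0.30 (SE 0.16; edgeR adjusted p = 0.689). The second chloroplast gene, cpHSC70-2, had -0.073, and HSP70-15 and HSP70-14, of the HSP110 type, had -0.19 and -0.11. Another HSP70 relative, AT1G11660, went the other way, with a log2 fold change of 0.13 (edgeR adjusted p = 0.778). Both transgenic libraries lay below both wild-type libraries for mtHSC70-1, HSP70-15 and HSP70-14, as they did for 19.3% of all genes tested. The groups overlapped for mtHSC70-2, cpHSC70-2 and AT1G11660.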
